A study of Mus musculus with 6 samples.

Results

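The genes described here are 9 members of the insulin-like growth factor (IGF) axis: the ligand gene Igf1, the receptor genes Igf1r and Igf2r, and the binding protein genes Igfbp2, Igfbp3, Igfbp4, Igfbp5, Igfbp6 and Igfbp7. They were taken by symbol from the 27998 genes of a table of single cells from mouse lung, and each symbol matched 1 row. Igf1 encodes a secreted growth factor, and Igf1r encodes the tyrosine kinase receptor through which it signals. Igf2r encodes the mannose 6-phosphate receptor, which binds IGF2 and carries it to lysosomes without kinase signalling. The binding proteins are secreted, hold IGFs in the extracellular space and can either shield them from the receptor or deliver them, and proteases release the bound ligand. IGFBP7 binds IGFs only weakly and is best known as a matrix protein of vessels and stroma. In the lung, fibroblasts and macrophages are the known sources of IGF1.

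All cells came from SMA-GFP;Tbx4cre;RosaTdTomato mice, which carry a green reporter for smooth muscle actin (SMA) and a red tdTomato (Tm) reporter switched on in the lineage that expressed Cre from Tbx4, a gene of lung mesenchyme. The labels name 6 samples. SMA+Tm+ cells, SMA-Tm+ cells and SMA-Tm- cells were each sorted once from normal mice (day 0) and once from mice treated with bleomycin (day 21), an agent widely used to model lung fibrosis. The number, age and sex of the mice per sample were not given, and the sort was set against the surface proteins Epcam, CD31 and CD45. The count table pools all samples, with barcode suffixes 1 to 6 that no label ties to a sample, so no comparison of days or gates was made. It is treated as 1 sample without replicates: no test was run, and every interval below is a 95% interval for counting error only.

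The values are counts of unique molecular identifiers (UMIs), short random tags by which amplified copies of one captured transcript collapse to a single count. Of 10410 barcodes, 9919 cells passed the filters (median 2699 UMIs), and suffixes held 707 to 3059 barcodes and 2778071 to 12427810 UMIs before filtering. There were 55 barcode sequences that occurred under more than 1 suffix. Suffixes 1 to 3 carried Y-linked transcripts at 301 to 323 CPM (a gene's share of all UMIs of the cells summed, in parts per 1e6), against 0 to 1.15 CPM in suffixes 4 to 6. Xist stood at 1466 to 1921 CPM in suffixes 4 to 6 and at 0.654 to 6.47 CPM in suffixes 1 to 3, so a difference between suffixes 1 and 4 cannot be told apart from sex.

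Cells were placed in classes by gate genes, none of which is a member. The mesenchymal gate (3 or more UMIs of the collagen genes Col1a2 and Col3a1 together) held 2442 cells. Of these, 554 had UMIs of Hhip only, 912 of Npnt only, 308 of Pi16 only, 439 of none of the 3 genes, and 229 of more than 1. Other gates held 49 mural cells (2 or more of Higd1b, Cox4i2, Notch3 and Cspg4), 87 mesothelial cells (2 or more of Wt1, Upk3b and Msln), 593 endothelial cells (2 or more UMIs of Pecam1 and Cdh5) and 4271 leukocytes (1 or more Ptprc UMI). Marker genes outside the gates were checked. Summed over Aspn, P2ry14 and Lum, ductal myofibroblast markers stood at 2955 CPM in Hhip-gated cells against 58.7 CPM in Npnt-gated cells. Alveolar fibroblast markers (Slc7a10, Wnt2 and Tcf21) stood at 937 CPM in Npnt-gated and 50.3 CPM in Hhip-gated cells. Adventitial fibroblast markers (Scara5, Ly6c1 and Ccl11) stood at 1152 CPM in Pi16-gated, 531 CPM in mesenchymal cells with none of the 3 genes, 74.8 CPM in Hhip-gated and 44.6 CPM in Npnt-gated cells. Ly6c1 was not specific, with 1836 CPM in endothelial and 390 CPM in Pi16-gated cells. Most Hhip-, Npnt- and Pi16-gated cells came from suffixes 1 and 4 (199 and 349, 86 and 756, and 88 and 197 cells).

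The 9 genes lie apart in the genome, except for the tail-to-tail pair of Igfbp2 (chromosome 1, 72824503 to 72852474, plus strand, GRCm38) and Igfbp5 (chromosome 1, 72857932 to 72874884, minus strand), which are 5457 bases apart. Igfbp3 (chromosome 11, 7206086 to 7213923, minus strand) has Igfbp1 as its neighbour at 3539 bases, and Igfbp4 (99041244 to 99054392, plus strand) lies on the same chromosome. Igfbp6 is on chromosome 15 (102144362 to 102149511, plus strand) and Igfbp7 on chromosome 5 (77349240 to 77408041, minus strand). Igf1 is on chromosome 10 (87858265 to 87937042, plus strand), Igf1r on chromosome 7 (67952827 to 68233668, plus strand) and Igf2r on chromosome 17 (12682406 to 12769664, minus strand). Igf1, Igf2r and Igfbp7 overlap genes on the opposite strand (Igf1os; Airn; Polr2b and Gm34648). The sources used here do not say whether the counting used strand, so their reads may include those of a partner.

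Promoter windows are shown for the binding protein gene with the most UMIs in each subtype, over all suffixes together. These are Igfbp3 in Hhip-gated, Igfbp4 in Pi16-gated and Igfbp7 in Npnt-gated cells. Igfbp5, which had the largest ratio in Hhip-gated cells, is also shown. Igfbp7 was within 2-fold of the other mesenchymal cells in all 3 subtypes. The sequences are from RefSeq on GRCm38.p6, run 5′ to 3′ along the gene's strand, and span 250 bases before to 50 after the annotated start. The windows are chr11:7213874-7214173 (minus strand), chr1:72874816-72875115 (minus), chr11:99040994-99041293 (plus) and chr5:77407996-77408295 (minus). Capitals mark the TATA box letters TATAAA and the GC box letters GGGCGG, read on either strand.

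Igfbp3: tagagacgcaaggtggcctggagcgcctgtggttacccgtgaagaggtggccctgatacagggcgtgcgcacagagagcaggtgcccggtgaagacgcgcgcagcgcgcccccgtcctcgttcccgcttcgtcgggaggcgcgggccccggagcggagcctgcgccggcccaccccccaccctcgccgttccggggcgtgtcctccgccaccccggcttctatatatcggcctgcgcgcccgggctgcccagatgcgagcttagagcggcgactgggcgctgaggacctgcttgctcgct

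Igfbp5: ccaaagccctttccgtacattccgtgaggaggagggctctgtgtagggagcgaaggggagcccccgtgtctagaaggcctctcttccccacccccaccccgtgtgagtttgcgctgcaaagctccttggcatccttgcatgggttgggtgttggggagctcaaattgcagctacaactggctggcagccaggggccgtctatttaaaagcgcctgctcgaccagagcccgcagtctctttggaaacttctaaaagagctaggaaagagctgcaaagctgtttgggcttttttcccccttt

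Igfbp4: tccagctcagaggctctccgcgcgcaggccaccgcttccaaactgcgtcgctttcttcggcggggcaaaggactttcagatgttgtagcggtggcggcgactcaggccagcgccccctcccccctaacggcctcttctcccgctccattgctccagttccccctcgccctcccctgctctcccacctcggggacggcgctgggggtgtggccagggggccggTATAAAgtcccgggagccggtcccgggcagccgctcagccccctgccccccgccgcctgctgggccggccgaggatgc

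Igfbp7: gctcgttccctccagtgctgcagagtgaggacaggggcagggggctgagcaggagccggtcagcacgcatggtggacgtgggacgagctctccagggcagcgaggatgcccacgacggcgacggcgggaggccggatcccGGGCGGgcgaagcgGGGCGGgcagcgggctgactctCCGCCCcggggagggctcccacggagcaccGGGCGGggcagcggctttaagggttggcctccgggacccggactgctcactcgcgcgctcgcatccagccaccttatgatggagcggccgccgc

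Igfbp4 had 1 TATAAA match, 28 bases before the start, and Igfbp7 had 4 GC box matches. The windows of Igfbp3 and Igfbp5 held neither set of letters. Over all 32851 promoter windows of the same length, 13.6% held TATAAA and 35.7% held GGGCGG. GC content was 71.7% for Igfbp3, 56.3% for Igfbp5, 71.3% for Igfbp4 and 73.3% for Igfbp7, against a median of 52.7% over all windows. A match is a description of the letters, and factor binding was not measured.

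Over all suffixes together, the binding protein gene with the most UMIs differed between the 3 fibroblast subtypes and mesothelium, as the map of levels by class shows. In Hhip-gated cells Igfbp3 stood at 2378 CPM (2298 to 2459), in Npnt-gated cells Igfbp7 at 3696 CPM (3627 to 3765), in Pi16-gated cells Igfbp4 at 3488 CPM (3379 to 3599) and in mesothelial cells Igfbp5 at 4589 CPM (4399 to 4785). UMIs of the 6 Igfbp genes summed to 6924, 5652, 7719 and 10483 CPM in these 4 classes, and to 2304 CPM in endothelial cells, 2337 CPM in mural cells and 150 CPM in T cells. In mesothelial cells the 6 genes thus took 1.05% of all UMIs. The lead genes of Hhip-gated and Pi16-gated cells did not hold within suffix 1. There Igfbp5 (2668 CPM) was above Igfbp3 (2308 CPM) in Hhip-gated cells. In Pi16-gated cells of suffix 1, Igfbp7 (2765 CPM) was above Igfbp4 (2592 CPM). The capture of a transcript's 3′ end differs from gene to gene, so shares between genes describe UMIs rather than transcripts.

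**Figure D1:**
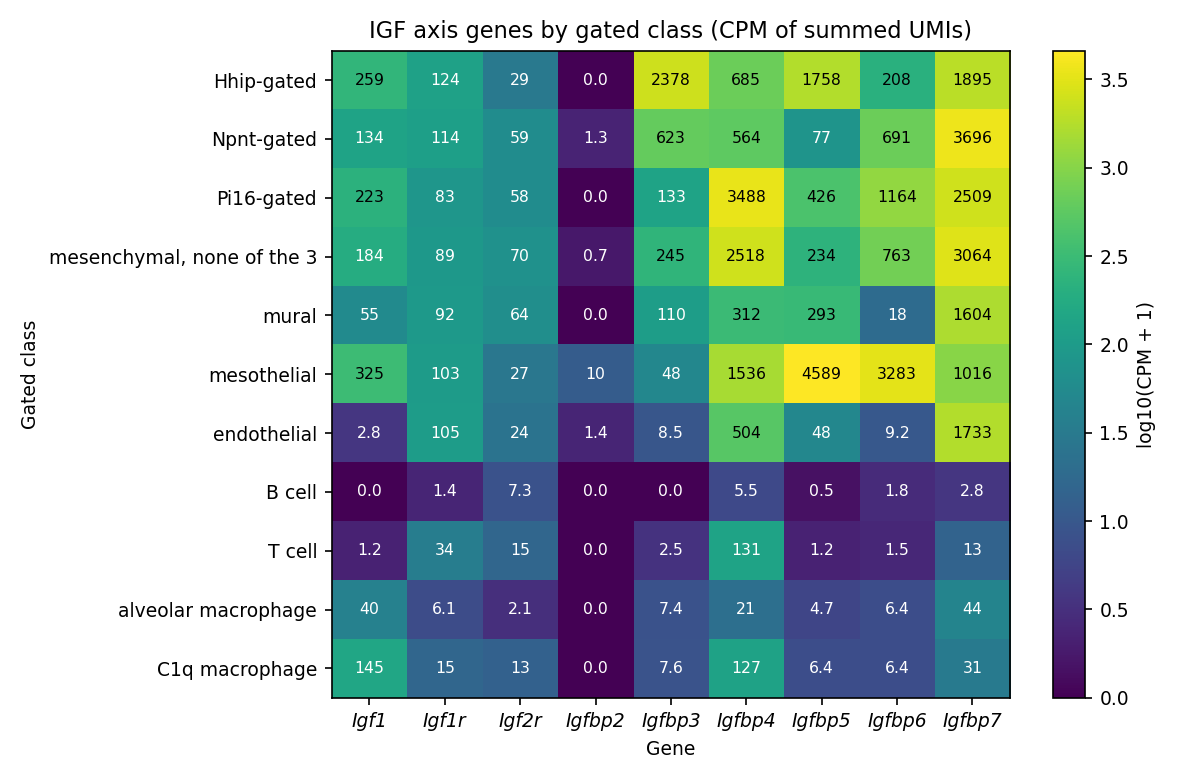
Levels of the 9 genes (columns) in 11 gated classes (rows), as CPM of summed UMIs; the number in each cell is the CPM and the colour its log10(CPM + 1). The highest cell of Igfbp3 is Hhip-gated (2378), of Igfbp4 Pi16-gated (3488), of Igfbp5 and Igfbp6 mesothelial (4589 and 3283) and of Igfbp7 Npnt-gated (3696), while B cells hold at most 7.34 CPM of any of the 9.

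The make-up of the Igfbp UMIs differed from class to class. In Hhip-gated cells Igfbp3 gave 34.3%, Igfbp7 27.4% and Igfbp5 25.4% of them. Npnt-gated cells drew 65.4% from Igfbp7, followed by Igfbp6 (12.2%) and Igfbp3 (11.0%). Pi16-gated cells drew 45.2% from Igfbp4 and 32.5% from Igfbp7, and mesothelial cells 43.8% from Igfbp5 and 31.3% from Igfbp6. Igfbp7 also led in mesenchymal cells with none of the 3 genes. The Igfbp UMIs of mural and endothelial cells were mostly Igfbp7 (68.6% and 75.2%), and those of T cells mostly Igfbp4 (87.5%). Only 36.4% of endothelial cells held an Igfbp7 UMI, so its share there does not describe most endothelial cells.

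**Figure D2:**
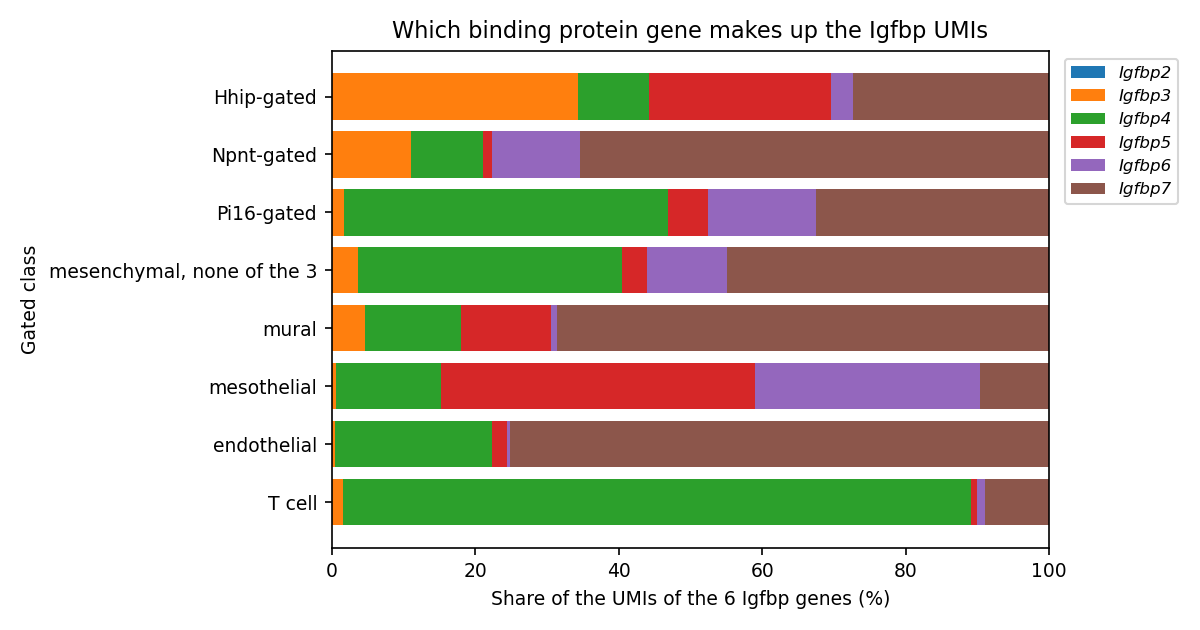
Share (%) of the UMIs of the 6 Igfbp genes that each gene gave in 8 gated classes; each bar sums to 100%. Igfbp3 and Igfbp5 fill most of the Hhip-gated bar together with Igfbp7, Igfbp7 alone fills 65.4% of the Npnt-gated bar, and Igfbp4 fills 87.5% of the T cell bar.

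The ligand gene Igf1 was spread over the mesenchymal gates, mesothelium and C1q macrophages (leukocytes with 3 or more UMIs of C1qa, C1qb and C1qc). It stood at 325 CPM (276 to 380) in mesothelial cells, 259 (233 to 286) in Hhip-gated, 223 in Pi16-gated, 184 in mesenchymal cells with none of the 3 genes, 145 (120 to 174) in C1q macrophages and 134 in Npnt-gated cells. Neighbours in this order had overlapping intervals throughout, but Hhip-gated cells were 1.93-fold above Npnt-gated cells (log2 0.95, 0.74 to 1.16). Lower levels were 55.0 CPM in mural cells, from 6 UMIs in 3 cells, and 40.0 CPM in alveolar macrophages (5 or more UMIs of Chil3 and Ear1). Endothelial cells had 4 Igf1 UMIs (2.83 CPM) and B cells 0 of 2181056 UMIs.

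The mesothelial level of Igf1 rested on suffix 4, which gave 54 of the 87 cells. It was 421 CPM there, with 138 UMIs, and 1 UMI each was found in the 11 cells of suffix 1 and the 12 of suffix 2 (21.97 and 18.66 CPM). Without suffix 4 the mesothelial level was 114 CPM. In Hhip-gated cells Igf1 was alike in suffixes 1 and 4, at 257 and 261 CPM, and in Pi16-gated cells it was 149 and 245 CPM.

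Igf1 was 3.63-fold (2.86 to 4.58) higher in C1q than in alveolar macrophages. In C1q macrophages it stood at 58.6, 195, 158 and 132 CPM in suffixes 1, 2, 4 and 5, the first from 2 UMIs. Igfbp7 was read in the same cells as a gene abundant in fibroblasts. All mesenchymal cells together held Igf1 at 185 CPM and Igfbp7 at 3048 CPM, whereas C1q macrophages held 145 and 30.5 CPM. In alveolar macrophages the same 2 genes stood at 40.0 and 43.8 CPM, with both highest in suffix 4 (65.7 and 84.1 CPM). Whether carried-over fibroblast RNA has a part in either level was not tested. In suffixes 2, 3 and 5 alveolar macrophages held Igf1 at 8.39, 13.5 and 27.0 CPM.

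Over the stromal classes the receptor gene Igf1r varied less than the binding protein genes Igfbp3 to Igfbp7. Igf1r stood at 124 CPM in Hhip-gated, 114 in Npnt-gated, 105 in endothelial, 103 in mesothelial, 91.6 in mural, 88.5 in mesenchymal cells with none of the 3 genes and 82.7 in Pi16-gated cells. Neighbours in this order did not differ beyond their counting intervals. T cells followed at 34.3 CPM, C1q macrophages at 15.3 CPM and B cells at 1.38 CPM, from 3 UMIs. Endothelial cells thus held the receptor gene at 105 CPM (88.4 to 123) with 2.83 CPM of the ligand gene, and over suffixes 1 to 6 their Igf1r ranged from 79.5 to 141 CPM.

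Igf2r split the fibroblast subtypes in another way. It stood at 69.7 CPM in mesenchymal cells with none of the 3 genes, 59.4 in Npnt-gated and 58.4 in Pi16-gated cells, and at 29.3 CPM (21.1 to 39.7) in Hhip-gated cells. The Hhip-gated level was 26.3 CPM in suffix 1 and 29.0 CPM in suffix 4, from 10 and 30 UMIs. Mesothelial and endothelial cells were near it, at 27.2 and 24.01 CPM.

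For each subtype, levels were set against all other mesenchymal cells, and a gene was called past 2-fold when the ratio of CPM was at least 2 or at most 0.5 and its interval lay beyond a ratio of 1. Genes with 30 or more UMIs in the mesenchymal gate were compared, which kept 8 of the 9 members. Igfbp2 was left out with 5 UMIs. In Hhip-gated cells 2 members were higher and 3 lower, where 5.01% and 8.88% of all 10946 genes compared were. In Npnt-gated cells 0 were higher and 2 lower (4.8% and 5.9% of all genes), and in Pi16-gated cells 1 was higher and 1 lower (3.11% and 6.88%). The median log2 ratio of the 8 members was -0.27, -0.28 and -0.07 in these subtypes, against 0.01, 0.02 and -0.09 over all genes compared. In each subtype some members stood above and others below the other mesenchymal cells.

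Hhip-gated, ductal myofibroblast-like cells combined Igfbp3 with Igfbp5. Igfbp3, which encodes the main carrier of IGFs in blood, stood at 2378 CPM against 425 CPM in other mesenchymal cells (5.60-fold, log2 2.48, 2.41 to 2.56). Igfbp5, whose protein binds to matrix, stood at 1758 CPM (1690 to 1828) against 195 CPM (9.02-fold, log2 3.17, 3.08 to 3.27). Igfbp3 was alike in suffixes 1 and 4 (2308 and 2415 CPM), while Igfbp5 was 2668 CPM in suffix 1 and 1422 CPM in suffix 4. Within these suffixes the log2 ratio was 3.26 and 2.44 for Igfbp3 and 3.77 and 2.89 for Igfbp5, so both stayed past 2-fold in each.

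The 3 members lower in Hhip-gated cells were Igfbp6, Igfbp4 and Igf2r. Igfbp6, whose protein prefers IGF2 over IGF1, stood at 208 CPM against 828 CPM (3.97-fold lower, log2 -1.99, -2.16 to -1.82). Igfbp4, whose protein is cut by the protease PAPP-A, stood at 685 CPM against 1673 CPM (2.44-fold lower, log2 -1.29, -1.38 to -1.19). Its log2 ratio was -0.98 without suffix 4, just inside 2-fold. Igf2r was 2.13-fold lower (log2 -1.09, -1.59 to -0.63). Igfbp7 was 1895 against 3303 CPM (log2 -0.80) and Igf1 259 against 169 CPM (log2 0.61), both short of 2-fold.

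Single cells showed the same pair of genes. Cells were thinned at random to 1000 UMIs each, so that shares do not follow depth, which left out 17 of 554 Hhip-gated cells. Igfbp3 was then found in 70.9% and Igfbp5 in 66.9% of Hhip-gated cells (82.5% and 79.8% unthinned, median 2439 UMIs), against 0% and 0.121% of B cells (median 2188 UMIs). Only 27 and 18 of the 839 B cells came from suffixes 1 and 4, which gave most Hhip-gated cells. The B cell shares are therefore not a background matched by suffix. Of Hhip-gated cells with Igfbp3, 75.3% also had Igfbp5, and of those without, 46.2%. Igf1 did not follow Igfbp3 by this measure: 70.8% of cells with Igf1 and 71.0% of those without held Igfbp3. Shares within 1 class can still follow which suffix a cell came from.

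Npnt-gated, alveolar fibroblast-like cells were low in Igfbp5 and, like Hhip-gated cells, low in Igfbp4. Igfbp5 stood at 77.1 CPM against 721 CPM (9.35-fold lower, log2 -3.23, -3.42 to -3.03) and was found in 4.07% of thinned cells. It was 97.8 CPM in suffix 1 and 78.7 CPM in suffix 4. Igfbp4 stood at 564 CPM against 2058 CPM (3.65-fold lower, log2 -1.87, -1.94 to -1.79), and only 24.6% of thinned cells held it. Low Igfbp4 was not particular to this gate: Hhip-gated cells held 685 CPM, 1.22-fold the Npnt-gated level (log2 0.28, 0.17 to 0.40). In Npnt-gated cells Igfbp4 was 566 and 587 CPM in suffixes 1 and 4. It was 41.5 and 49.98 CPM in suffixes 5 and 6, from 3 UMIs in 26 cells and 2 UMIs in 19 cells.

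Of the 4 mesenchymal gates, Npnt-gated cells held the most Igfbp7, but it was not past 2-fold there (1.39-fold, log2 0.48). It stood at 2871 CPM in suffix 1 and 3835 CPM in suffix 4, and 91.5% of thinned cells held it (98.5% unthinned). Igfbp3 came second to the Hhip-gated level, at 623 CPM in 37.1% of thinned cells. Set directly against Npnt-gated cells, Hhip-gated cells were 22.8-fold higher in Igfbp5 and 3.82-fold higher in Igfbp3. They were 3.32-fold lower in Igfbp6 and 2.02-fold lower in Igf2r. In this contrast 5.98% of 9790 genes were higher and 9.24% lower.

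Pi16-gated, adventitial fibroblast-like cells were high in Igfbp4 and low in Igfbp3. Igfbp4 stood at 3488 CPM against 1167 CPM (2.99-fold, log2 1.58, 1.52 to 1.63), and 89.2% of thinned cells held it. It was 2592 CPM in suffix 1 and 3734 CPM in suffix 4, and within suffix 1 its log2 ratio was 0.96, just inside 2-fold. Igfbp3 stood at 133 CPM against 885 CPM (6.65-fold lower, log2 -2.73, -2.98 to -2.50). Its level was 14.01 CPM in suffix 1, from 3 UMIs in 88 cells, and 160 CPM in suffix 4. The log2 ratio was accordingly -6.31 within suffix 1 and -2.42 within suffix 4, the same direction with a different size.

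Igfbp6 stood at 1164 CPM in Pi16-gated cells (1.81-fold, log2 0.86), the highest of the fibroblast gates, with 1677 CPM in suffix 1 and 1011 CPM in suffix 4. Its log2 ratio was 1.23 within suffix 1 and 0.69 within suffix 4. Igfbp5 was intermediate at 426 CPM (log2 -0.19), and this ratio was -1.77 within suffix 1 and 0.12 within suffix 4, so it had no stable direction. Against Npnt-gated cells, Pi16-gated cells were 6.19-fold higher in Igfbp4 and 5.53-fold higher in Igfbp5, and 4.68-fold lower in Igfbp3. In that contrast 5.29% of 9534 genes were higher and 8.86% lower.

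The direct contrast of Hhip-gated with Pi16-gated cells held the widest gap of Igfbp3 among the 3 pairs of subtypes. Igfbp3 was 17.9-fold and Igfbp5 4.12-fold higher in Hhip-gated cells, and Igfbp6 was 5.59-fold and Igfbp4 5.09-fold lower, where 7.75% and 7.3% of 8164 genes were. These ratios share cells with the contrasts above and are not separate evidence.

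**Figure D3:**
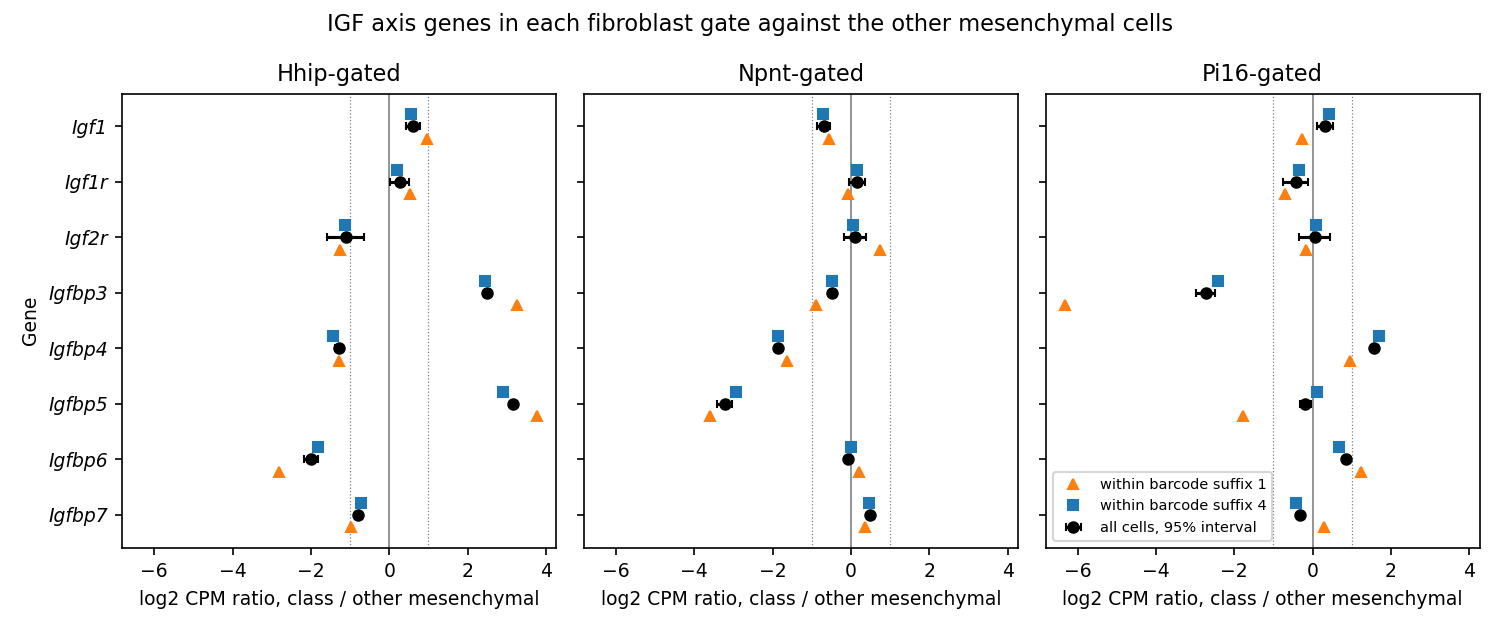
Log2 ratio of CPM (x axis) of 8 members (y axis) in each fibroblast gate against all other mesenchymal cells; circles are all cells with the 95% counting interval, triangles and squares the ratio within suffix 1 and suffix 4, and dotted lines mark 2-fold. Igfbp3 and Igfbp5 sit right of 2-fold in Hhip-gated cells in both suffixes, while Igfbp5 in Pi16-gated cells changes side between them.

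Mesenchymal cells with none of the 3 gate genes were nearest to Pi16-gated cells in Igfbp4, at 2518 CPM, and held Igfbp7 at 3064 CPM and Igfbp3 at 245 CPM. Of these, 205 cells with UMIs of Rbp4 or Adam23 had Igfbp4 at 3027 CPM, and the Pi16-gated level was 1.15-fold (1.09 to 1.22) higher. Epithelial marker UMIs (Epcam, Cdh1 and Sftpc) summed to 387 CPM in the cells with none of the 3 genes and to 16.1 to 20.96 CPM in the 3 subtypes. Without 1 cell of 5 or more Sftpc UMIs they summed to 19.7 CPM, and Igfbp4 and Igfbp7 stood at 2514 and 3074 CPM. Of cells at 1000 UMIs, 56.1% of Hhip-gated, 58.4% of Pi16-gated and 29.6% of Npnt-gated cells held 3 or more of the 6 Igfbp genes.

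Mesothelial cells, which line the lung surface, held the highest levels of Igfbp5 and Igfbp6. Igfbp5 stood at 4589 CPM against 478 CPM in all mesenchymal cells (9.60-fold, log2 3.26, 3.19 to 3.34) and Igfbp6 at 3283 CPM against 715 CPM (4.59-fold, log2 2.20, 2.12 to 2.28). Both were higher than in the next class: Igfbp5 was 2.61-fold (2.46 to 2.77) above Hhip-gated cells, and Igfbp6 was 2.82-fold (2.62 to 3.04) above Pi16-gated cells. Over suffixes 1, 2 and 4 Igfbp5 was 6437, 6867 and 3771 CPM and Igfbp6 3141, 2090 and 3230 CPM, each above the fibroblast levels of the same gene. After thinning, 83.9% of mesothelial cells held Igfbp5 and 86.2% Igfbp6.

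Members lower in mesothelial cells were Igfbp3 (48.2 against 779 CPM, 16.2-fold), Igfbp7 (1016 against 3048 CPM, 3.0-fold) and Igf2r (27.2 against 56.6 CPM, 2.08-fold). The Igf2r value came from 13 UMIs and was 132 CPM in suffix 1 and 9.16 CPM in suffix 4. In all, 2 members were higher and 3 lower, where 8.26% and 11.0% of 11173 genes were. Igfbp4 stood at 1536 CPM, near the mesenchymal 1494 CPM, but was 835, 187 and 1981 CPM in suffixes 1, 2 and 4. Mesothelial cells also held 5 of the 27 Igfbp2 UMIs in the table, 1 in each of 5 cells (10.5 CPM, 3.40 to 24.4).

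Igfbp2 was otherwise close to absent from the gated stroma. Hhip-gated cells had 0 Igfbp2 UMIs, with an upper limit of 2.58 CPM, and Npnt-gated cells had 4, all in 1 cell. A further 10 UMIs lay in 4 ungated cells, all of which held epithelial Epcam or Cdh1 UMIs. Its neighbour Igfbp5, 5457 bases away, had 2516 UMIs in Hhip-gated cells.

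Mural cells, the pericytes and smooth muscle cells of vessels, held mainly Igfbp7, at 1604 CPM (1375 to 1860) in 44.4% of thinned cells. Against all mesenchymal cells 0 members were higher and 4 lower, where 6.24% and 3.53% of 10994 genes were. Igfbp6 was 39.0-fold lower, from 2 UMIs (log2 -5.29, -8.33 to -3.43), Igfbp3 7.08-fold, Igfbp4 4.80-fold and Igf1 3.37-fold lower. The gate held 49 cells, and 4 cells gave 30 of its 34 Igfbp4 UMIs, 28 of its 32 Igfbp5 UMIs and all 12 Igfbp3 UMIs. These 3 levels therefore describe a few cells more than the class. Mural markers outside the gate (Pdgfrb, Rgs5, Gucy1a3 and Myh11) summed to 4050 CPM, with 5 UMIs of Rgs5. Ductal markers stood at 486 CPM and alveolar markers at 183 CPM in the same cells. Cells that passed both the mural and the mesenchymal gate were counted as mural. Whether fibroblasts or their RNA have a part in the mural levels was not tested.

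Endothelial cells held Igfbp7 and Igfbp4 but hardly any other binding protein gene. Igfbp7 stood at 1733 CPM and Igfbp4 at 504 CPM, against 9.18 CPM for Igfbp6 and 8.48 CPM for Igfbp3. Igfbp5 was at 48.0 CPM, with 56 of its 68 UMIs in 4 cells. Against all mesenchymal cells 0 members were higher and 6 lower, where 16.6% and 16.5% of 11590 genes were. Igfbp3 was 91.9-fold, Igfbp6 77.9-fold and Igf1 65.6-fold lower. Igfbp7 (log2 -0.81) and Igf1r (log2 -0.04) were within 2-fold. Endothelial cells also carried 987 CPM of the epithelial markers. Without 7 cells of 5 or more Sftpc UMIs this was 58.7 CPM, and Igfbp7 and Igfbp4 stood at 1766 and 513 CPM.

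The endothelial mean of Igfbp7 hid a split between vessel types. Cells with 2 or more UMIs of Car4 and Ednrb, genes of the capillary cells called aerocytes, held Igfbp7 at 7340 CPM (7027 to 7664), the highest level of any member in any class. Cells gated by Gpihbp1, a gene of general capillary endothelium, held 217 CPM (163 to 284), and cells gated by Vwf, a gene of larger vessels, held 53.3 CPM (23.0 to 105). The gap was 33.8-fold (25.8 to 45.1) between the capillary gates and 138-fold (69.8 to 320) to the Vwf gate. These gates were chosen after the levels had been seen, and hold 112, 130 and 66 cells.

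In every suffix Igfbp7 was higher in the Car4 and Ednrb gate than in the Gpihbp1 gate. In suffixes 1 to 6 the former held 6279, 5273, 4251, 9217, 9285 and 8576 CPM, from 10 to 25 cells each. The Gpihbp1 gate held 125 to 402 CPM, as the plot by endothelial gate shows. Igfbp7 was found in 93.4% of thinned cells of the first gate and 17.5% of the second, and the first was 1.99-fold (1.89 to 2.08) above Npnt-gated fibroblasts. Median depth was 2301.5 UMIs in the first gate and 1559.5 UMIs in the second.

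Igfbp4 ran the other way over these gates. It was at 131 CPM in the Car4 and Ednrb gate, 555 CPM in the Gpihbp1 gate and 506 CPM in the Vwf gate. The Gpihbp1 gate was thus 4.22-fold (2.92 to 6.25) above the Car4 and Ednrb gate, and did not differ from the Vwf gate beyond counting error. In the Gpihbp1 and Vwf gates Igfbp4 was above Igfbp7, which stood at 217 and 53.3 CPM there. The 19 cells with Ccl21a, a gene of lymphatic endothelium, held Igfbp4 at 2303 CPM (1979 to 2665), 4.15-fold (3.30 to 5.21) above the Gpihbp1 gate, and Igfbp7 at 870 CPM. Of these 19 cells, 12 came from suffix 5.

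**Figure D4:**
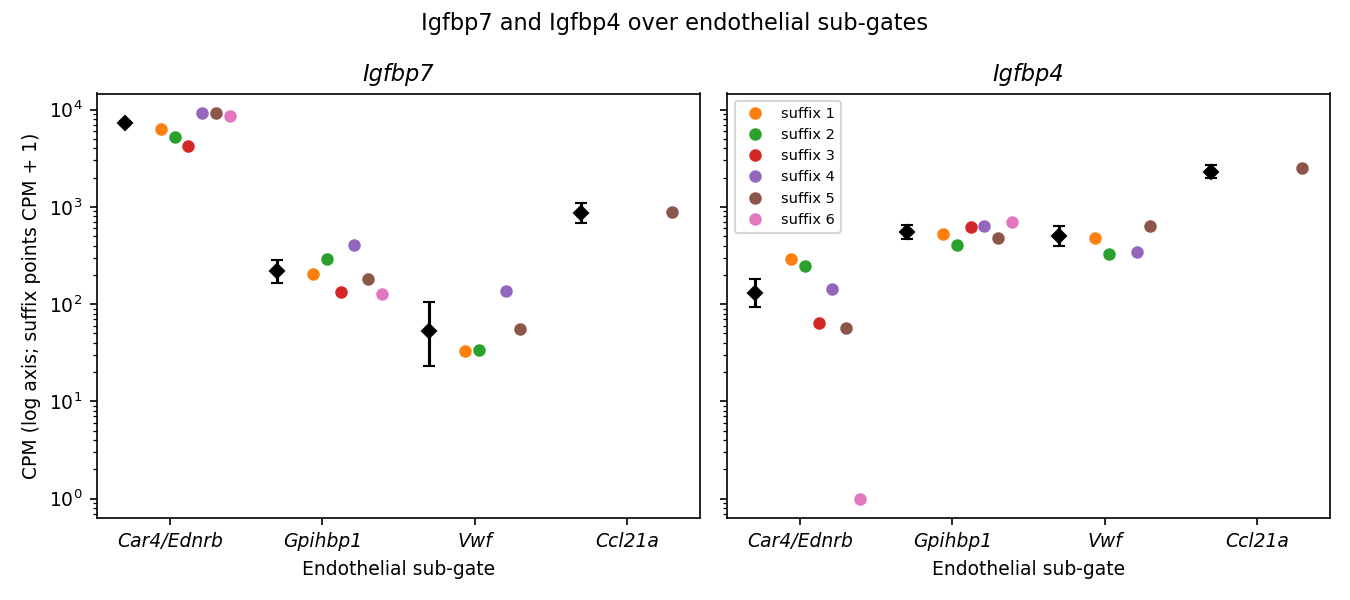
Igfbp7 (left) and Igfbp4 (right) in 4 endothelial sub-gates (x axis) as CPM on a log axis; black diamonds are all cells with the 95% counting interval, and coloured points are suffixes with at least 10 cells, drawn at CPM + 1. Igfbp7 is highest in the Car4 and Ednrb gate in all 6 suffixes (4251 to 9285 CPM), while Igfbp4 is higher in the Gpihbp1 gate (555 CPM) than in the Car4 and Ednrb gate (131 CPM).

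Among leukocytes most members were low. B cells (2 or more Cd79a UMIs) held at most 7.34 CPM of any of the 9, reached by Igf2r. T cells (1 or more UMI of Cd3e and Cd3g) held Igfbp4 at 131 CPM, 23.8-fold (13.5 to 46.4) above B cells. This was found in suffixes 2, 3, 5 and 6 as well (164, 118, 148 and 50.4 CPM), where T cells had Igfbp7 at 1.80 to 11.8 CPM. In suffix 4, T cells had Igfbp7 at 120 CPM in 40 cells, beside Igfbp4 at 178 CPM. T cells with Cd4 held Igfbp4 at 226 CPM and those with Cd8 at 125 CPM, a 1.80-fold gap (1.38 to 2.34). After thinning, 19.4% and 9.32% of these cells held it. C1q macrophages held Igfbp4 at 127 CPM, 6.16-fold above alveolar macrophages.

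Other genes of the pathway were taken from fixed lists of 51 genes, of which 42 could be compared with the other mesenchymal cells. In Hhip-gated cells 4 were higher and 6 lower (5.01% and 8.88% of all genes), in Npnt-gated cells 1 and 5 (4.8% and 5.9%), and in Pi16-gated cells 1 and 1 (3.11% and 6.88%). Of the 19 adaptors and kinases downstream of the receptor, 0 were higher in any of these 3 contrasts. In Hhip-gated cells 2 were lower, where 8.88% of all genes were: Tsc2, from 13 UMIs, and Grb14, from 1 UMI. With Hhip-gated set directly against Pi16-gated cells, 2 of 17 were higher and 1 lower (7.75% and 7.3% of all genes).

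Among the ligand genes and the 4 genes of proteases and their inhibitors, Igf2, Pappa2 and Stc1 were higher and Stc2 lower in Hhip-gated cells. Igf2 stood at 73.4 CPM there, 3.89-fold above other mesenchymal cells, and at 7.71 CPM in Npnt-gated cells. Pappa2, which encodes a protease that cuts IGFBP3 and IGFBP5, was 6.69-fold higher in Hhip-gated cells (25.9 CPM, from 37 UMIs). Stc1, which encodes stanniocalcin 1, an inhibitor of such proteases, was 2.21-fold higher, while its paralog Stc2 was 6.31-fold lower, from 2 UMIs. Pappa2 and Stc1 were lower in Npnt-gated cells, by 6.92-fold and 5.85-fold. Pappa, which encodes the protease PAPP-A that cuts IGFBP4, was within 2-fold in all 3 subtypes, at 16.8 to 31.5 CPM.

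Genes that share the IGF-binding domain but bind IGFs poorly or serve other roles differed between the subtypes as well. Of 9 compared, 1 was higher and 3 lower in Hhip-gated cells (5.01% and 8.88% of all genes). In Hhip-gated cells Kazald1 was 2.88-fold higher and Wisp2 7.72-fold lower, and Htra3 (3.31-fold) and Ctgf (2.32-fold) were also lower. Wisp2 was 4.51-fold higher in Npnt-gated cells, and the secreted protease gene Htra3 was 2.65-fold higher in Pi16-gated cells. Against all mesenchymal cells, 1 of the 9 genes of this group was higher and 8 lower in endothelial cells (16.6% and 16.5% of all genes). In mesothelial cells 2 were higher and 6 lower (8.26% and 11.0%), and in mural cells 2 and 3 (6.24% and 3.53%). The mural calls of Wisp1 (higher), Htra1 and Htra3 (lower) rested on 4 mural UMIs each. Cyr61, which encodes a matrix protein, was 37.7-fold lower in endothelial and 7.60-fold lower in mesothelial cells. Crim1, a membrane protein gene of the group, was 13.0-fold higher in mural, 5.88-fold in mesothelial and 4.97-fold in endothelial cells than in all mesenchymal cells. Grb14, whose product restrains receptor signalling, was 10.1-fold higher in endothelial cells, at 48.7 CPM. Igfbp1, the neighbour of Igfbp3, was listed at 0 in all 11 classes.

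For the 7 members that reached 100 CPM in a class (all but Igf2r and Igfbp2), the genes with the most similar level over the 11 classes were ranked by Pearson correlation of log2(CPM + 10) among 3656 genes at 100 CPM or more in a class. Igfbp3 was nearest to Kcns3 (r = 0.981), Igfbp5 to Sulf1 (0.978), Igfbp6 to Gpc3 (0.978) and Igfbp7 to Klf9 (0.988). Igfbp4 was nearest to Sdf4 (0.954), Igf1 to Tmed3 (0.946) and Igf1r to Ttc28 (0.9498). Between these 7 members, r was highest for Igf1r with Igfbp7 (0.915) and lowest for Igf1 with Igf1r (0.501). All classes share the same table, 4 of them are mesenchymal and 4 are leukocytes, so the points are not independent.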

How the data were processed

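Single cells of mouse lung were profiled by 10x droplet sequencing of 3′ ends, per the labels' protocols. The deposited table holds raw UMI counts, with nothing normalized. The authors used STAR 2.5.1, Cell Ranger 1.3.0 and the mm10 build, per the submitters' processing notes. Their normalized table was not used. Barcodes with under 500 genes (318) or over 10% mitochondrial UMIs (105) were removed, as were 75 doublets (0.75%) called by Scrublet (scanpy 1.11.5) within each suffix. Of the rest, 292 cells in conflicting gates were set aside and 2185 lay in no gate. UMIs were summed per class and scaled to CPM. Intervals at 95% are exact: Poisson for levels, conditional binomial for ratios and Clopper-Pearson for shares of cells (scipy 1.17.1). The ratio script was tested on simulated counts. Comparisons outside the subtypes used genes with 30 or more UMIs in both sides together. Counts under 3 entered list medians as 3.

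Members, gates and gene lists were chosen with earlier results of these data known. Of other genes, those past 2-fold in a listed pathway and the 2 most similar per member could be named. Alternatives covered the cell filter, doublets, gate strictness and genes, per-cell means, subtraction of the lymphocyte level, each suffix left out or taken alone and, added after seeing the data, equal weights for reference classes and leaving out cells of 5 or more Sftpc UMIs. Few lymphocytes came from suffixes 1 and 4 (27 and 18 of 839 B cells, 41 and 40 of 899 T cells). The subtracted lymphocyte level is therefore mostly that of other suffixes. The planned comparison of day 21 with day 0 was not made, because no column name ties a cell to a labelled sample.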

Additional observations from a re-analysis of the deposited data

Results flagged for a closer look

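Cells outside the gates were not used in any comparison, yet held UMIs of the members above what a count of 0 allows. In the 2185 ungated cells the levels were 38.8 CPM for Igf1, 37.0 for Igf1r, 18.5 for Igf2r, 1.80 for Igfbp2, 151 for Igfbp3, 131 for Igfbp4, 138 for Igfbp5, 83.5 for Igfbp6 and 336 for Igfbp7. All were below the levels of the fibroblast gates that lead each gene, except Igfbp2, which these gates hardly held. In the 292 cells set aside for conflicting gates the levels were 45.3 CPM for Igf1, 50.2 for Igf1r, 30.8 for Igf2r, 106 for Igfbp3, 424 for Igfbp4, 276 for Igfbp5, 201 for Igfbp6 and 720 for Igfbp7. Which cells these UMIs came from was not tested.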

How the results depend on the processing

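The 9 member calls in the 3 fibroblast subtypes kept their direction under every alternative run, and all stayed past 2-fold except Igfbp4 in Hhip-gated cells without suffix 4 (log2 -0.98) and Igfbp4 in Pi16-gated cells within suffix 1 (0.96). In Pi16-gated cells 2 members in place of 1 were higher with per-cell means, without suffix 4, and with reference classes weighted equally, the last chosen after seeing the data. There, 2 in place of 1 were lower without suffix 4 and within suffix 1. The cause was not tested. Leaving out cells of 5 or more Sftpc UMIs, also chosen after seeing the data, kept all 9 calls. The size of Igfbp3 in Pi16-gated cells moved most, from log2 -2.73 to -6.31 within suffix 1 and -4.32 without suffix 4. The mesothelial levels of Igf1 and Igfbp5 were 114 and 6379 CPM without suffix 4, against 325 and 4589 CPM. Ratios short of 2-fold changed sign in some settings for Igf1, Igf2r, Igfbp5 and Igfbp7 in Pi16-gated cells and for Igf1r, Igf2r and Igfbp6 in Npnt-gated cells. With 49 mural and 87 mesothelial cells, counts limit the receptors and Igf1 there, and intervals leave out variation between mice. No paired analysis was possible because no column carries a sample's group or replicate number.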
